A study of Mus musculus with 2 samples.

Results

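Among the cells of the mouse temporomandibular joint (TMJ), 145 of the 6681 that met the quality limits were Ly6c2 Ccr2 monocytes, and these cells are described here. They were selected by their own counts of unique molecular identifiers (UMIs, one per captured RNA molecule). A cell had to hold at least 5 UMIs of Ly6c2, Ccr2 and F13a1 together and at least 3 of Lyz2, the lysozyme gene of myeloid cells. It had to hold fewer than 5 UMIs of the macrophage genes C1qa, C1qb and C1qc, fewer than 5 of the osteoclast genes Mmp12, Dcstamp and Acp5, and fewer than 2 of the endothelial genes Pecam1 and Cdh5. The granule genes Mpo, Elane, Prtn3 and Ctsg had to stay under 0.2% of its UMIs and S100a8 with S100a9 under 2%. Every gene named in these limits is given below as a description only, since it chose the cells.

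The study injected both TMJs of C57BL/6 wild-type mice with 10 µL of phosphate-buffered saline (PBS) or of complete Freund's adjuvant (CFA, 5 mg/mL), an oil emulsion of killed mycobacteria. Its methods give female mice injected at 8 weeks and joints collected 3 weeks later, whereas the labels give an age of 8 to 10 weeks. Condyle, disc, temporal bone, ligament and muscle were digested together, so marrow cells could be included, and magnetic beads were used to take out CD45-positive cells ahead of capture. The monocytes are therefore the leukocytes that remained after depletion, and their share is not that of the joint. There was 1 library per condition, and no value below has a replicate. The methods give n = 3 and describe a tube for the tissues of each group, without stating in words that animals were pooled. All intervals are 95% intervals of counting error in these libraries.

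Ly6c2-high, Ccr2-positive monocytes are made in the bone marrow, leave it through the chemokine receptor CCR2 and enter inflamed tissue from the blood. In tissue they can turn on antigen presentation and chemokine genes and can give rise to macrophages, dendritic cells and, with the right cytokines, osteoclasts. Interferon gamma, a lymphocyte cytokine, acts on them through its receptor and induces guanylate-binding proteins, MHC genes and CXCL9.

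The PBS library held 19 of these monocytes among 2667 cells, a share of 0.712% (0.429% to 1.11%, exact interval). The CFA library held 126 among 4014 cells, a share of 3.14% (2.62% to 3.73%). The share was 4.41 times higher in CFA (2.73 to 7.12). Among cells with a UMI of Ptprc, the gene of CD45, the shares were 5.34% (19 of 356) and 8.50% (121 of 1424), a ratio of 1.59 (0.996 to 2.55). Ptprc cells were themselves a larger part of the CFA library, and the interval of the second ratio reached below 1. Without the upper limits on macrophage and osteoclast genes, 26 PBS and 329 CFA cells qualified and the ratio of shares was 8.41.

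The PBS monocytes gave 258969 UMIs in all and a median of 11001 per cell (6415 to 39318). The CFA monocytes gave 1756644 UMIs and a median of 12203.5 per cell (1107 to 51990). Medians of 3290 and 3520 genes were detected per cell, and mitochondrial UMIs had medians of 1.83% and 2.12%. Hemoglobin RNA made up 20.7% of the PBS library and 7.90% of the CFA library. The limit of 1% per cell took out 3178 PBS and 339 CFA cells that met the other limits. Without that limit, 33 PBS and 128 CFA cells met the monocyte selection, against 19 and 126 with it. The limit thus removed a much larger part of the PBS monocytes than of the CFA monocytes. The libraries shared 10 barcode sequences, 1 of them that of a monocyte.

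Some cells within the selection stood against its name. In 7 CFA cells and 1 PBS cell, collagen, bone and cartilage genes held over 0.2% of the UMIs, while no other monocyte held more than 0.101%. In 4 CFA cells these genes held 17.1% to 24.8%, with up to 8071 UMIs of Ibsp (bone sialoprotein) and up to 2348 of Col2a1 (cartilage collagen) in 1 cell. These 4 cells had 98, 1, 101 and 45 UMIs of F13a1, at most 6 of Ly6c2, at most 1 of Ptprc and at most 1 of Tyrobp. Those with 98, 101 and 45 UMIs met the marker limit through F13a1, a transglutaminase gene that monocytes share with some chondrocytes and bone cells. The cell with 1 UMI of F13a1 met it through 6 UMIs of Ly6c2. The PBS cell, with 25 UMIs of Ptprc and 63 of Tyrobp, held these genes at 0.453%. Another PBS cell held 96.6% of the 29 UMIs of the basophil and mast cell list, among them 13 of Gata2 and 5 of Mcpt8. Results that rest on these cells are given with and without the 8 stromal-gene cells.

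The 3 genes that chose the cells varied widely among them. Ly6c2 (chr15:75108158-75111970, minus strand, mm10), which encodes the surface protein that defines the classical monocyte of the mouse, ranged over 1 to 69 UMIs per PBS cell with a median of 19. In CFA it ranged from 0 to 74 with a median of 14. Ccr2 (chr9:124101950-124113557, plus strand) had medians of 7 UMIs in both libraries and ranges of 2 to 20 and 0 to 28. F13a1 (chr13:36867178-37050244, minus strand) had medians of 28 and 18 and ranges of 0 to 74 and 0 to 116. All 3 genes were detected in 18 of 19 PBS cells and in 89 of 126 CFA cells (70.6%, 61.9% to 78.4%). No Ly6c2 was found in 15 CFA cells and no Plac8 in 15, against 0 of 19 PBS cells for either, which allows a share of up to 17.6%.

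Plac8 (chr5:100553725-100572245, minus strand), a monocyte marker that the selection did not use, was detected in every PBS cell and in 111 CFA cells. Its level was 1579 counts per 1000000 UMIs (CPM) over the PBS monocytes and 2348 over the CFA monocytes, a ratio of 1.49 (1.34 to 1.65). Without the 8 stromal-gene cells Plac8 was at 1.66 times (1.49 to 1.85). In cells thinned to 3000 UMIs, 100% of PBS and 81.5% of CFA monocytes kept a UMI of it, against 4.62% and 5.43% of endothelial cells. The marker was thus higher in level but found in a smaller share of the CFA cells. Cells just inside the limit, with 5 to 7 UMIs of the selecting genes, occurred only in CFA (11 cells) and had Plac8 at 948 CPM. The 10 CFA cells just outside, with 3 or 4 UMIs, had 470 CPM, and the 115 with 8 or more had 2482 CPM.

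**Figure D1:**
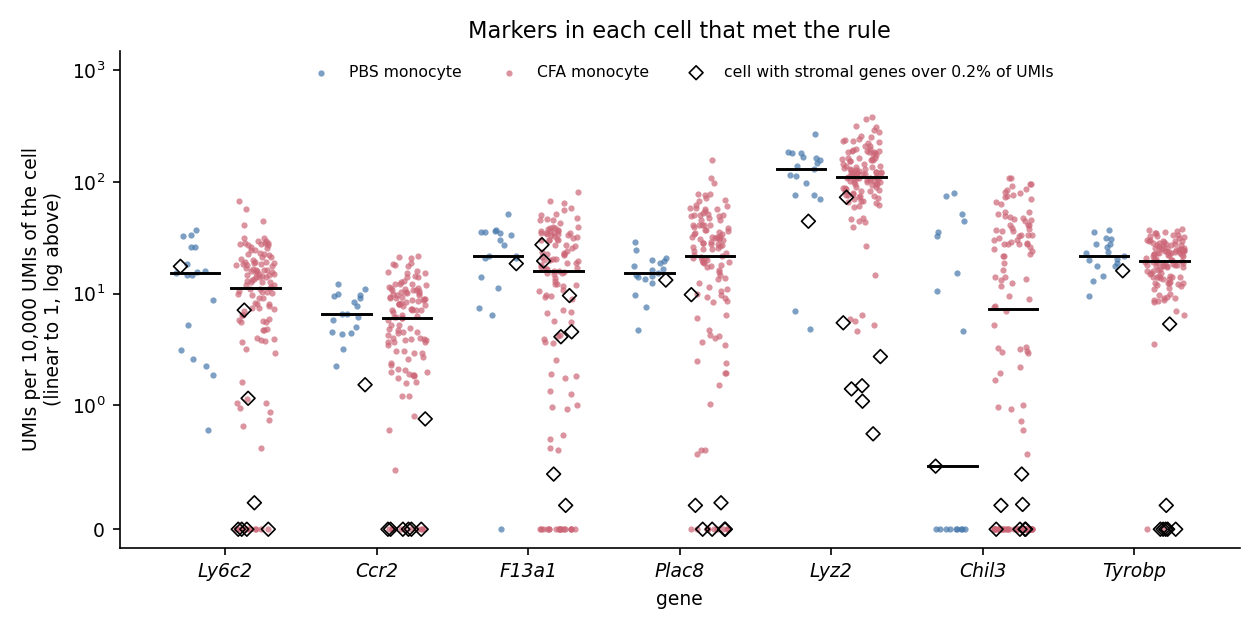
Markers in each of the 145 cells. Each point is 1 cell, the vertical axis gives UMIs of the gene per 10000 UMIs of the cell (linear to 1, logarithmic above), black bars are medians over each library's cells, and open diamonds are the 8 cells with stromal genes over 0.2% of UMIs. Ly6c2, Ccr2 and F13a1 were used by the selection, Lyz2 was required, and the other genes were not used. Of the 7 CFA diamonds, 6 lie at or near 0 for Tyrobp, with no more than 1 UMI.

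The wider identity of the cells was that of monocytes in both conditions. Of the 20 genes of a monocyte identity list that the selection did not use, all passed the filter on level (a mean of the PBS and CFA levels of at least 100 CPM), and only Cd14 differed by 2-fold or more, at 2.24 times and at 1.98 times without the cells high in MHC class II that are described below; 6.73% of all genes that passed were at least 2-fold higher. The list summed to 17701 CPM in PBS and 19013 in CFA, a ratio of 1.07 (1.04 to 1.11). Plac8, also of this list, passed 2-fold in a smaller set, at 2.54 times (2.18 to 2.97), with Cd14 at 1.90 there. That set was the 11 PBS and 63 CFA cells left without stromal-gene, cycling and class II cells, described below. Fcer1g, the signalling chain of Fc receptors, stood at 2236 and 2237 CPM, and Chil3, a lectin of classical monocytes, at 1525 and 1950 CPM. The nonclassical monocyte list, led by Nr4a1, summed to 1247 and 1304 CPM. Cx3cr1, which marks the nonclassical cells, was low at 73.4 and 55.2 CPM.

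The CFA monocytes were set beside other myeloid cells of their library, as a description, since the limits that chose them left those cells out. Cells with at least 5 UMIs of the C1q genes (430 in CFA) held Ccr2 at 72.0 CPM and Plac8 at 310, against 564 and 2348 in the monocytes. Ms4a4c, a monocyte membrane protein gene, was at 314 CPM in the monocytes and 80.7 in the C1q cells. Neutrophil-type cells rich in S100a8 and S100a9 exceeded the monocytes in Chil3, at 4332 against 1950 CPM, but had Vcan, the proteoglycan gene of classical monocytes, at 75.7 against 549. Progenitor-type cells rich in Mpo and Elane held Plac8 at 2789 CPM and Ly6c2 at 1127, near the monocytes, with Ccr2 at 147. The identity list summed to 19013 CPM in the monocytes and to 17066 in the S100a8 and S100a9 cells, 14698 in the cells with Acp5, Dcstamp or Mmp12, 13654 in the C1q cells (1.39 times, 1.38 to 1.41) and 9718 in the progenitor-type cells. The monocytes had lower levels than the C1q cells of Lyz2, at 11205 against 24187 CPM, and of Apoe, a lipid carrier of macrophages, at 996 against 6087. The selection itself set C1qa, which stood at 9.68 against 1130 CPM. In the PBS library the C1q cells numbered 16 and carried 58248 CPM of neutrophil genes, so no such comparison was made there.

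**Figure D2:**
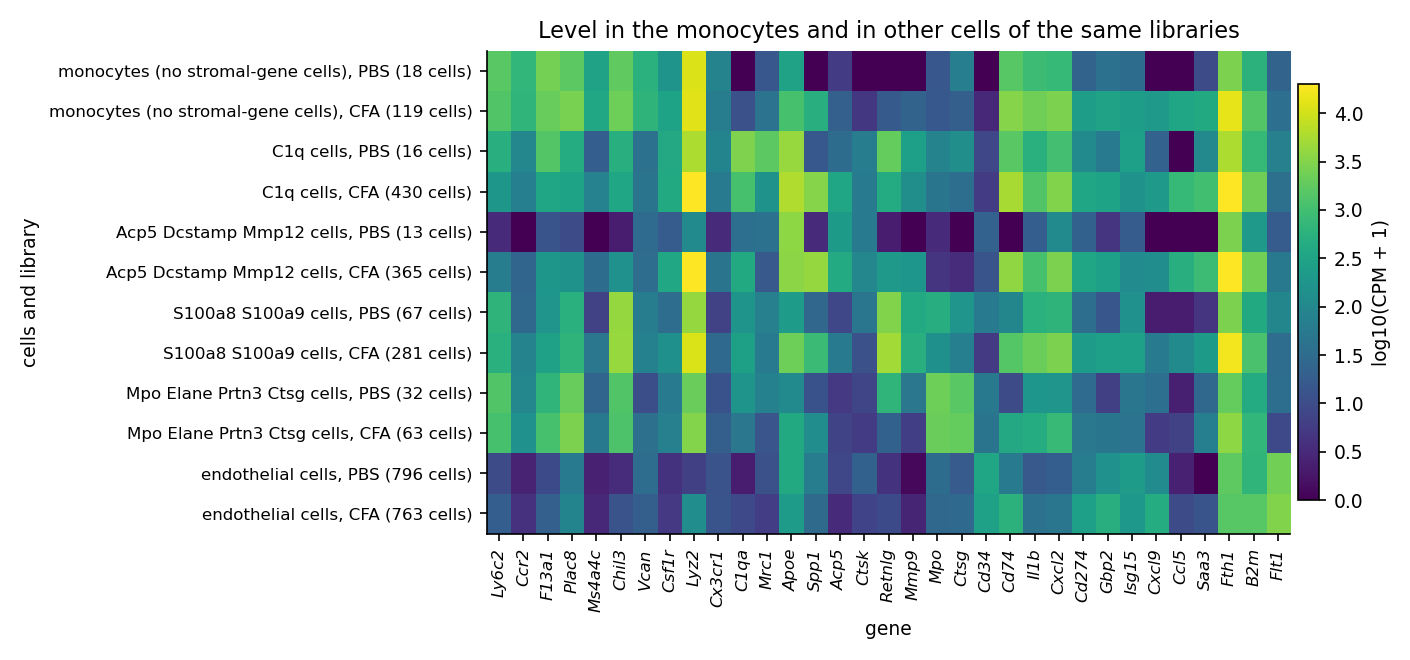
Levels of 33 genes in the monocytes, without the 8 stromal-gene cells, and in 5 other sets of cells of each library. Color gives log10 of CPM plus 1 over the summed UMIs of a set, and the number of cells stands beside each row; the sets other than the monocytes can share cells. In CFA, Ccr2 is at 649 CPM in these monocytes and at 72.0, 24.2, 82.3, 147 and 3.13 CPM in the other sets, in the order drawn.

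Levels in CFA and PBS monocytes were then compared gene by gene. Of 1916 genes that passed the filter, 129 (6.73%) were at least 2-fold higher in CFA and 49 (2.56%) at least 2-fold lower. Without the 8 stromal-gene cells, 1932 genes passed, 114 (5.90%) were higher and 43 (2.23%) lower, and 92 and 30 genes were called both ways. The median gene had a ratio of 0.907, which is -0.14 on the log2 scale, and scaling to that median gave 152 higher and 30 lower genes. The stromal-gene cells supplied 11 of the 12 highest genes of all 145 cells. Ibsp went from 2 UMIs in PBS to 16070 in CFA and Col2a1 from 1 to 7508. Without those cells Ibsp stood at 9.11 and 17.7 CPM and Col2a1 at 4.55 and 11.2. Ccl5 was the other gene of the 12.

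**Figure D3:**
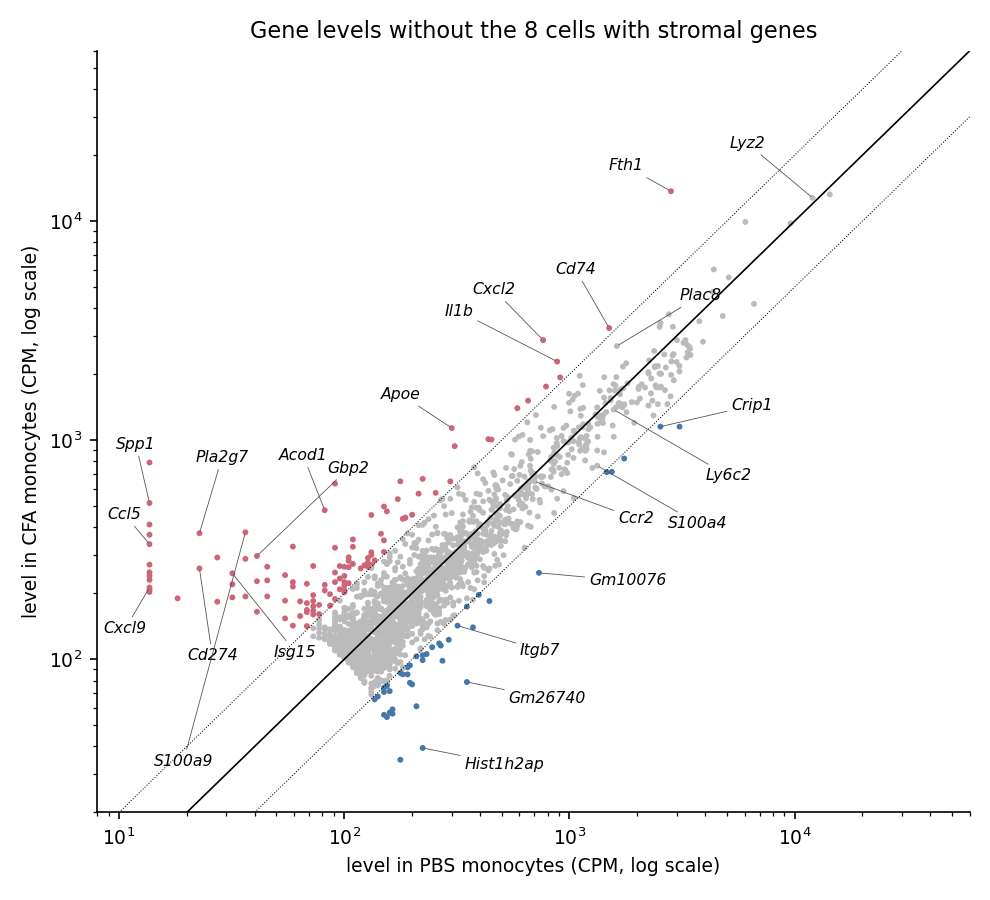
Level of each gene over the 18 PBS monocytes (horizontal, CPM, log scale) and the 119 CFA monocytes (vertical, CPM, log scale) left without stromal-gene cells. Each point is 1 of the 1932 genes that passed the filter; red points are at least 2-fold higher in CFA, blue points at least 2-fold lower, the solid line marks equal levels and the dotted lines a 2-fold difference. Genes with no UMI in PBS are drawn at the floor of 3 counts, as Ccl5 and Cxcl9 are.

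Genes that interferon gamma induces were higher in the CFA monocytes. The list of 30 summed to 2062 CPM in PBS and 4386 in CFA, a ratio of 2.13 (1.95 to 2.33). Of its 13 genes that passed the filter, 7 were at least 2-fold higher and 0 lower, where 6.73% of all genes were higher. The median log2 ratio of the 13 was 1.06 against -0.14 over all genes. Cell by cell, the list took a median of 0.168% of UMIs in PBS (0.115% to 0.464%) and 0.323% in CFA (0.0149% to 2.13%), so the ranges overlapped and the CFA range reached further up.

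Gbp2, a guanylate-binding GTPase of cell-autonomous defence, went from 34.7 to 264 CPM, 7.60 times (3.97 to 16.7). Gbp5, of the same family, went from 50.2 to 190 CPM and Ifi47, an immunity-related GTPase, from 42.5 to 171 CPM. The GTPase gene Iigp1 had no UMI in PBS and 393 in CFA, at least 15.6-fold higher by the lower end of its interval. Of those UMIs, 37.7% came from 1 cell. The lower end was 9.43-fold without the stromal-gene cells and 0.991-fold without class II and cycling cells as well. Cd274, which encodes the T cell inhibitory ligand PD-L1, had 5 UMIs in 5 PBS cells and 400 in 62 CFA cells. Its level was 11.8 times higher in CFA (5.01 to 36.5). The proteasome activator gene Psme2 was 2.08 times higher (1.56 to 2.84), and 1.65 times without the cells high in MHC class II, whereas its partner Psme1 stood at 305 and 301 CPM. Irf1 was at 197 and 330 CPM and the immunoproteasome gene Psmb8 at 305 and 401. In the 11 PBS and 63 CFA cells described above, Psme2 was at 2.30 times (1.46 to 3.82) and Psmb8 at 2.12 (1.37 to 3.43). Irf1 was at 1.69 times there and Psme1 at 0.835. The receptor gene Ifngr1 was lower without reaching 2-fold, at 386 and 231 CPM.

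Cxcl9 (chr5:92321347-92328079), a chemokine for activated T cells that interferon gamma induces, had 0 UMIs in the 19 PBS cells and 328 in 26 of the CFA cells, at least 16.1-fold higher. After thinning, 10.5% of CFA monocytes kept a UMI of Cxcl9, and 0% of PBS monocytes. Ccl5 (chr11:83525778-83530518), another T cell attractant, had 0 UMIs in PBS and 513 in 40 CFA cells, at least 20.4-fold higher. Both genes were detected in a minority of the CFA monocytes. Endothelial cells of the same libraries, given side by side, went from 148 to 503 CPM for Gbp2 and from 118 to 450 for Cxcl9. Their Ccl5 stood at 1.5 and 8.84 CPM.

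Interferon-stimulated genes of type I showed a smaller difference. The list summed to 2201 and 2960 CPM, a ratio of 1.34 (1.23 to 1.47), and 1 of its 7 genes that passed the filter was at least 2-fold higher, where 6.73% of all genes were. That gene was Isg15, a ubiquitin-like modifier, at 30.9 CPM in PBS and 220 in CFA (7.11 times, 3.57 to 16.6). Ifi27l2a stood at 992 and 902 CPM and Trim30a at 235 and 221. Isg15 in endothelial cells was at 242 and 192 CPM.

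Interferon-regulated promoters often hold a pair of GAAA motifs, and the promoter windows of the genes above are shown here for that reason. The windows run from 250 bases before to 50 after each RefSeq start (GRCm38.p6, mm10). GAAANNGAAA, searched on both strands, was in 1079 of 27025 windows (3.99%) and in 82 of the 1529 genes that passed the filter and had a window (5.36%). It was in 12 of 22 windows of the interferon gamma list and 11 of 20 of the type I list; these lists were drawn up from known responders, and the letters describe them and name no bound factor. Of the genes at least 2-fold higher, 13 of 90 windows held it (14.4%), and of those lower, 3 of 27 (11.1%). In the 4 runs of 30 bases below, capitals mark the motif. They lie at chr3:142620594-142620623 (plus strand, 59 bases before the start of Gbp2), chr3:142496759-142496788 (plus, 165 before Gbp5), chr4:156200871-156200900 (minus, 78 before Isg15, with 3 overlapping matches) and chr2:122147538-122147567 (plus, 139 before B2m). In the Gbp2 and Gbp5 runs the motif reads on the opposite strand. The windows of Ifi47, Cxcl9, Cd274, Psme2 and Tapbp did not hold these letters.
Gbp2: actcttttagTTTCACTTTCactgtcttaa
Gbp5: acttgtgtagTTTCAATTTCagtttagaga
Isg15: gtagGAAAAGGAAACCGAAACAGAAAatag
B2m: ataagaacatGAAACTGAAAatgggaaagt

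Antigen presentation genes of both MHC classes had higher summed levels in CFA, but that of class II depended on which cells were counted. The class I list summed to 2209 and 4419 CPM (2.0 times, 1.84 to 2.18), and 2 of its 4 genes that passed the filter were at least 2-fold higher, against 6.73% of all genes. B2m, the invariant light chain, had UMIs in every monocyte of both libraries and went from 579 to 1303 CPM (2.25 times, 1.91 to 2.67). Tapbp, which loads peptides onto class I molecules, went from 88.8 to 196 CPM, and the heavy chain genes H2-K1 and H2-D1 stood at 1.90 and 1.57 times. Without the cells high in MHC class II, B2m and Tapbp were both at 1.80 times. In the 11 PBS and 63 CFA cells described above, B2m was at 1.84 times and Tapbp at 3.46 (1.54 to 9.60). Endothelial B2m was at 637 and 1518 CPM. The class II list summed to 3607 and 7328 CPM (2.03 times, 1.90 to 2.17), with H2-Ab1 at 3.21, H2-Eb1 at 2.48, H2-Aa at 2.45 and Cd74, the invariant chain, at 2.28 times. The class II signal sat in few cells. Cd74 had a median of 0 UMIs per PBS cell and 1 per CFA cell, with maxima of 192 and 382, and 1 PBS cell held 58.2% of its library's Cd74. Without the cells with 10 or more UMIs of the cell cycle list, which left 8 PBS and 81 CFA cells, the class II list turned to 0.894 times (0.830 to 0.963), with Cd74 at 0.870, H2-Aa at 0.916 and H2-Eb1 at 0.903.

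**Figure D4:**
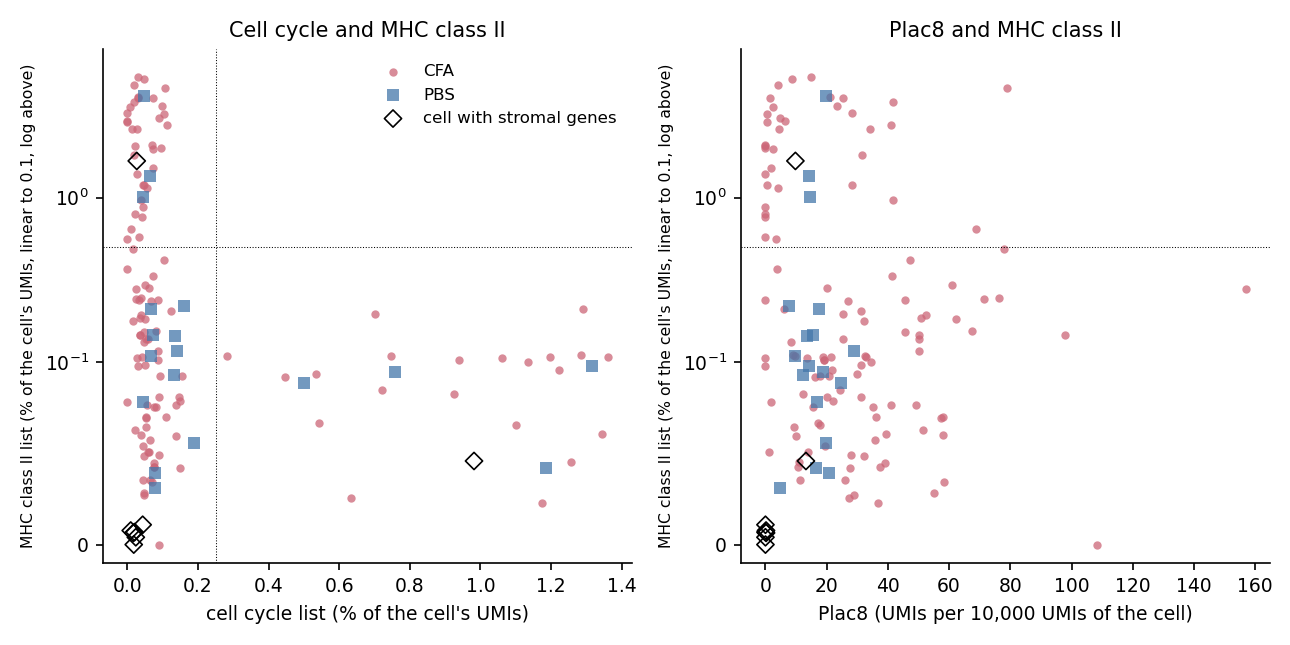
Each point is 1 of the 145 cells. The vertical axes give the share of a cell's UMIs in the MHC class II list (percent, linear to 0.1, logarithmic above) and the horizontal axes the share in the cell cycle list (left) and Plac8 per 10000 UMIs (right). Dotted lines mark 0.5% for MHC class II and 0.25% for cell cycle; no cell outside the diamonds, which are the 8 stromal-gene cells, lies past both lines.

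With a line drawn at 0.5% of UMIs after the values were seen, 3 of 18 PBS and 35 of 119 CFA monocytes were high in MHC class II (16.7%, 3.58% to 41.4%, and 29.4%, 21.4% to 38.5%). Within a factor of 2 of that line lay 0 PBS and 14 CFA cells, so the division is a range in CFA. The 35 CFA cells were lower in classical monocyte genes than the other 84. Ly6c2 stood at 513 against 1742 CPM, F13a1 at 401 against 2682, Plac8 at 1422 against 3223 and Chil3 at 221 against 3094. Macrophage genes were higher in the 35 cells, with Apoe at 3016 against 352 CPM and the tissue macrophage list at 4356 against 941. Spp1 (osteopontin) stood at 1302 against 189 CPM, but 1 of the 35 cells held 482 of its UMIs, so that contrast rested largely on 1 cell. Lyz2, at 13566 against 12474 CPM, differed little. Cd274 was at 466 against 174 CPM, Cxcl9 at 392 against 138 and Il1b at 3583 against 1746. The 3 PBS cells were led by other genes. They held Cd209a and Flt3, genes of monocyte-derived and conventional dendritic cells, at 403 and 288 CPM, Spp1 at 0 and Apoe at 57.6 CPM, and 1 of them was the cell with basophil genes. Cd209a had no UMI in any CFA monocyte.

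Several differences between CFA and PBS rested on those class II cells. Without them, the ratio was 1.02 for the tissue macrophage list and 1.02 for Apoe, against 2.28 and 3.79 in all cells. For the MHC class II list it was 1.09 against 2.03, but that list picked the cells left out, so this ratio was set in part by the split. Of the named genes past 2-fold, 42 of 54 higher and 12 of 15 lower genes were still past it. Arg1, the arginase gene used as a marker of alternative activation, had 0 UMIs in PBS and 245 in 20 CFA cells, with 38.0% from 1 cell. Arg1 was at least 9.72-fold higher, and at least 1.57-fold without the class II cells. The interferon gamma list kept a ratio of 1.82, and in the 11 PBS and 63 CFA cells low in stromal, cell cycle and class II genes it was 2.21 (1.94 to 2.53). There Gbp2 was 5.89 times higher (2.48 to 18.4), Cd274 7.53 (2.89 to 27.9) and Isg15 6.06 (2.55 to 18.9). Cxcl9 was at least 6.34-fold and Ccl5 at least 2.86-fold higher. The interferon genes were therefore higher outside the class II cells as well.

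Cytokine and chemokine genes were split. The inflammatory list summed to 1714 and 3159 CPM (1.84 times, 1.67 to 2.03), and 1 of its 5 genes that passed the filter was at least 2-fold higher, against 6.73% of all genes. Il1b (chr2:129364570-129371139), the gene of interleukin-1β, had a median of 1 UMI per PBS cell (0 to 48) and 17.5 per CFA cell (0 to 156), so the ranges overlapped. Its level was 749 and 2035 CPM, 2.72 times higher (2.35 to 3.15), and 1.82 times in the 11 PBS and 63 CFA cells described above. Tnf, by contrast, stood at 178 and 151 CPM, Il6 at 147 and 172 and Ptgs2, the inducible cyclooxygenase, at 247 and 223. Il4 had no UMI in either library.

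The chemokine list summed to 2993 and 5553 CPM (1.86 times, 1.72 to 2.0), and 2 of its 7 genes that passed the filter were at least 2-fold higher, against 6.73% of all genes. They were Ccl5, given above, and Cxcl2. Without the cells with 10 or more cell cycle UMIs the list was at 1.04 times (0.954 to 1.15). Cxcl2 (chr5:90903871-90905938), a neutrophil attractant, was found in 7 of 19 PBS cells and 112 of 126 CFA cells and went from 660 to 2544 CPM (3.85 times, 3.31 to 4.51), and was at 1.96 times in the 11 PBS and 63 CFA cells described above. In PBS 55.0% of its UMIs came from 1 cell. After thinning, 15.8% of PBS and 75.8% of CFA monocytes kept a UMI of Cxcl2, against 2.31% and 10.6% of endothelial cells. Over all cells Ccl4 stood at 722 and 801 CPM, Ccl6 at 521 and 510, and Ccl3 at 564 and 355 CPM. Without the class II cells Ccl4 was at 3.32 times (2.58 to 4.34), Ccl3 at 1.65 (1.25 to 2.22) and Ccl6 at 1.34 (1.08 to 1.69), so Ccl3 turned from lower to higher, and without the cells with 10 or more cell cycle UMIs Ccl4 was at 0.391 times. The chemokine receptor list had 0 genes past 2-fold among the 3 that passed, with Ccr2 at 618 and 564 CPM.

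Some genes that restrain inflammation were also higher. Il1r2, the decoy receptor for interleukin-1, went from 46.3 to 160 CPM (3.46 times, 1.95 to 6.78), and Socs3, a brake on cytokine signalling, from 170 to 433 CPM (2.55 times, 1.88 to 3.54; 1.87 times without the cycling cells described below). Socs3 was at 4.21 times (2.56 to 7.43) in the 11 PBS and 63 CFA cells described above. Il1rn, the interleukin-1 receptor antagonist, had 4 UMIs in 2 PBS cells and 293 in 63 CFA cells, 15.4 and 167 CPM. Its mean level passed the filter only without the stromal-gene cells. Tgfb1, at 239 and 164 CPM, was lower without reaching 2-fold, and Igf1, at 50.2 and 21.6 CPM, came from 1 PBS cell and 7 CFA cells. That PBS cell was the stromal-gene cell, and without it no UMI of Igf1 was left in PBS. The whole list summed to 934 and 1885 CPM, 2.02 times (1.77 to 2.31), with 2 of the 4 genes that passed at least 2-fold higher, against 6.73% of all genes, and 0 lower.

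Pla2g7, Acod1, Arg2, Cd38 and Ms4a6d also stood near the top of the order. Without the stromal-gene cells, Pla2g7, which degrades platelet-activating factor, was at 22.8 and 376 CPM (16.5 times, 7.04 to 51.1). Acod1, which makes itaconate, was at 81.9 and 479 CPM (5.85 times, 3.68 to 9.93), and Arg2, the mitochondrial arginase, at 59.2 and 327 CPM (5.53 times, 3.20 to 10.4). Arg2 was spread widely, in 100 of 126 CFA cells and 7 of 19 PBS cells. Cd38, an NAD-consuming ectoenzyme, was at 13.7 and 208 CPM, and Ms4a6d, a membrane-spanning protein gene, at 31.9 and 220 CPM. In the 11 PBS and 63 CFA cells described above, Arg2 was at 3.60 times (2.07 to 6.84) and Ms4a6d at 3.98 (1.78 to 11.0). Acod1 was at 7.86 times there (3.95 to 18.3) and Pla2g7 at 20.3 (5.57 to 169). Cd38 had no UMI in those PBS cells and was at least 4.69-fold higher.

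Receptors, lysosomal genes and transcription factors differed in a few members, where 6.73% of all genes that passed the filter were at least 2-fold higher. In the pattern recognition list 3 of 9 genes that passed were past 2-fold, Cd14, the lipopolysaccharide co-receptor (394 to 884 CPM), and the fungal lectin receptors Clec4d (158 to 383) and Clec4n (92.7 to 251). Without the class II cells Clec4n was at 1.15 times (0.726 to 1.92), Clec4d at 1.71 and Cd14 at 1.98. Clec4e stood at 429 and 516 CPM. Fcgr3, an activating Fc receptor, went from 77.2 to 197 CPM. Of 18 lysosomal genes that passed, 3 were past 2-fold, Ctsd (139 to 461 CPM), Cd63 (57.9 to 219) and Ctss (707 to 1546), the cathepsin that trims the invariant chain. Ctss was at 1.61 times without the class II cells. Cd63 without the stromal-gene cells was at 22.8 and 70.3 CPM. Sod2, a mitochondrial antioxidant gene and NF-κB target, was 3.06 times higher (2.21 to 4.35), and 1.89 times without the class II cells, whereas Nfkbia stood at 1421 and 1508 CPM. Of 15 transcription factor genes that passed, 2 were past 2-fold, among them Hif1a (170 to 374 CPM, 2.20 times, with 1.94 times without the stromal-gene cells and 1.66 without the class II cells). Zeb2, at 2541 and 1896, and Runx1, at 838 and 786 CPM, were not. F10, which encodes coagulation factor X, went from 189 to 496 CPM (2.62 times, and 1.83 without the cycling cells described below). In the 11 PBS and 63 CFA cells described above, F10 was at 2.22 times (1.56 to 3.24).

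**Figure D5:**
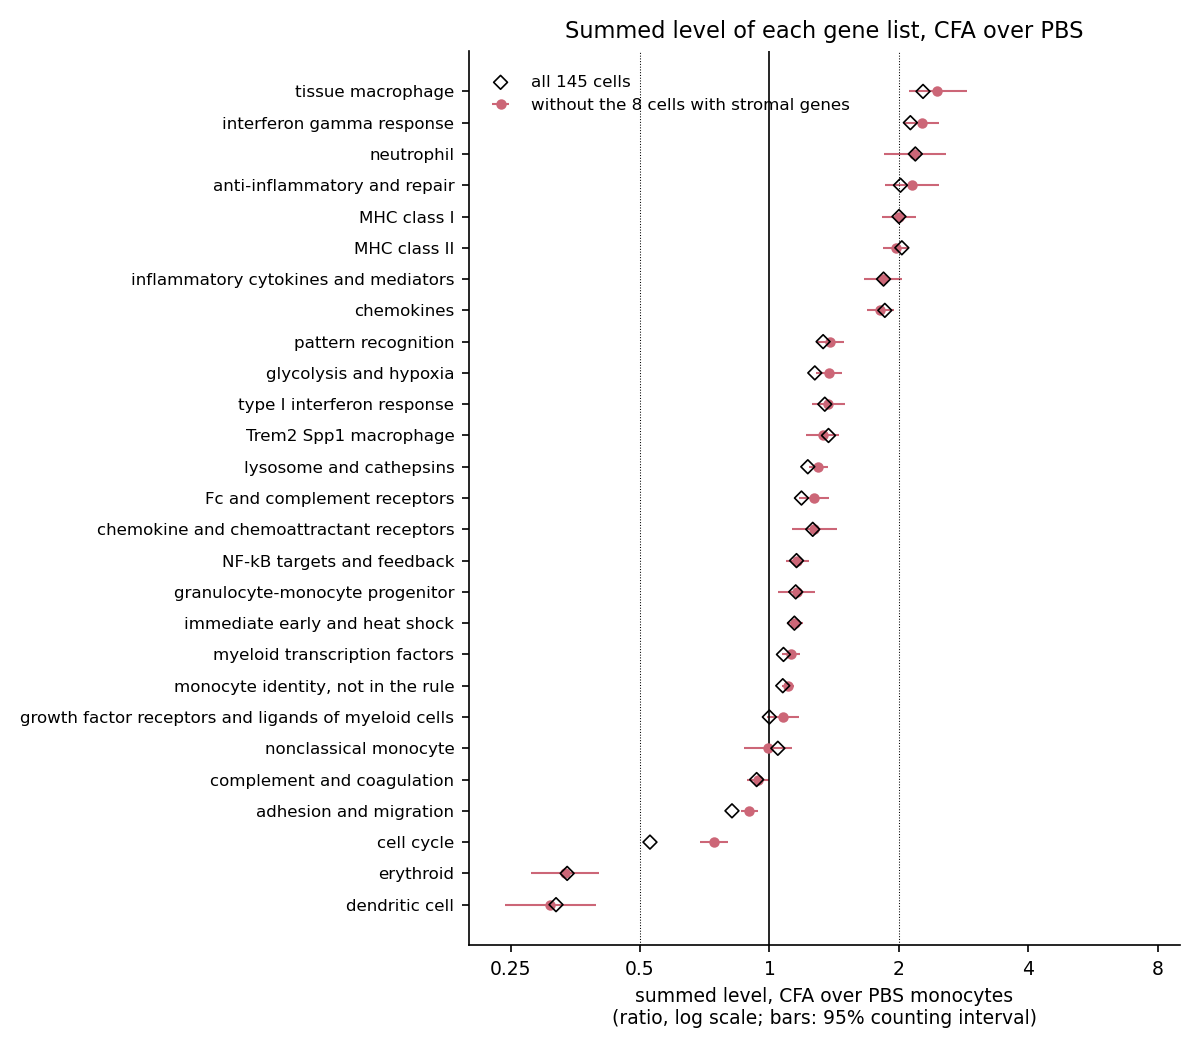
Summed level of each gene list in CFA over PBS monocytes (horizontal, ratio, log scale), for the lists with at least 100 UMIs in PBS. Filled points leave out the 8 stromal-gene cells, with 95% counting intervals as bars, and open diamonds use all 145 cells; dotted lines mark 2-fold. The interferon gamma list lies at 2.26 and the monocyte identity list at 1.10, while the dendritic cell list lies lowest at 0.308. The dendritic cell list was at 0.912 without the class II cells, a setting not drawn.

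Fewer genes were lower in CFA, and histone genes led them. Hist1h2ap was at 0.147 times (0.102 to 0.213), and at 0.177 without the stromal-gene cells. Hist1h1b was at 0.274 times and at 0.418 without the stromal-gene cells. Without the cycling cells described below Hist1h1b was at 0.543 times (0.116 to 5.09). The cell cycle list summed to 4746 and 2503 CPM (0.527 times, 0.495 to 0.562). Of its 7 genes that passed the filter, 3 were at least 2-fold lower, Top2a, Birc5 and Hmgb2, where 2.56% of all genes were. Without the stromal-gene cells the ratio was 0.743 and Top2a alone stayed at least 2-fold lower, with Birc5 at 0.616 and Hmgb2 at 0.618 times. The PBS stromal-gene cell alone accounted for 31.4% of its library's cell cycle UMIs. With a line at 0.25% of UMIs, also drawn after seeing the values, 4 of 18 PBS and 21 of 119 CFA cells were cycling by these genes (22.2%, 6.41% to 47.6%, and 17.6%, 11.3% to 25.7%), intervals that overlap widely. The 21 CFA cells were lower in activation genes than the other CFA cells, with Cd274 at 10.7 CPM against 341 in the others, Cxcl9 at 10.7 against 278 and Il1b at 782 against 2776. All PBS monocytes had Il1b at 749 CPM, the 4 cycling PBS cells at 288 and the other 14 at 1159. In the 21 CFA cells the interferon gamma list stood at 2899 CPM and the class I list at 2773. These lists were at 2062 and 2209 in all PBS monocytes and at 1971 and 1784 in the 4 cycling PBS cells. The 21 CFA cells had Ly6c2 at 2042 CPM against 1165 in the other CFA cells.

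Outside the cell cycle, Crip1, a small LIM domain protein gene, was found in all 19 PBS and 115 CFA cells and went from 2576 to 1055 CPM (0.410 times, 0.375 to 0.448). Itgb7, the integrin β7 chain, went from 320 to 124 CPM (0.385 times, 0.298 to 0.503), and S100a4, at 1232 and 675 CPM, did not reach 2-fold. Arhgap45, a regulator of small GTPases, went from 236 to 85.4 CPM. The unnamed transcript gene Gm26740 was in 19 of 19 PBS and 56 of 126 CFA cells, at 317 and 68.3 CPM. In the 11 PBS and 63 CFA cells described above, Crip1, Itgb7, Arhgap45 and Gm26740 had ratios of 0.447, 0.466, 0.440 and 0.256. Ust, a sulfotransferase gene among the 12 lowest, rested on the class II cells, with a ratio of 1.0 without the class II cells.

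Markers of other cells also differed between the conditions, and their part in the results above was not tested. The neutrophil list summed to 610 and 1333 CPM, of which S100a9, capped by the selection, was at 34.7 and 333 CPM and Retnlg at 0 and 13.7. The dendritic cell list summed to 402 and 128 CPM, with 37.5% of the PBS UMIs in 1 cell. Without the class II cells that list had a ratio of 0.912 (0.597 to 1.45). The T or NK cell list was near 0, at 3 UMIs in PBS and 108 in CFA. Hemoglobin genes led the erythroid list, at 730 and 247 CPM, as they did in the libraries as a whole. Osteoclast genes were low in both, with Acp5 at 2 and 32 UMIs, Ctsk at 3.86 and 6.26 CPM and Dcstamp at 0 and 1 UMI. Of the progenitor genes, Ctsg stood at 88.8 and 16.5 CPM and Mpo at 15.4 and 12.5. Spp1, at 65.6 and 577 CPM, had its PBS UMIs in the stromal-gene cell and 47.6% of its CFA UMIs in 1 cell.

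The lists not yet given are described by their ratios. Over all genes that passed the filter, 6.73% were at least 2-fold higher and 2.56% at least 2-fold lower. The lists of immediate early and heat shock genes and of growth factor receptors and ligands had 0 of 15 and 0 of 12 genes past 2-fold, with ratios of 1.14 and 1.0. The adhesion and migration list was at 0.818, with Itgb7 lower among 14 genes, the complement and coagulation list at 0.934, with F10 higher among 8, and the NF-κB list at 1.16, with Sod2 higher among 11. Glycolysis and hypoxia genes were at 1.27, with Hif1a and the glycolytic enzyme gene Tpi1 (2.08 times, and 1.23 without the class II cells) higher among 12. In the 11 PBS and 63 CFA cells described above, Tpi1 was at 2.40 times (0.984 to 7.62). The Trem2 Spp1 macrophage list was at 1.37, with Spp1, Cd63, Ctsd and the tetraspanin gene Cd9 higher among 6; Cd9 was 3.0 times higher in all cells and 5.03 times without the stromal-gene cells. Progenitor genes were at 1.15, B cell genes at 1.18, endothelial genes at 0.941 and osteoclast genes at 2.17 (1.48 to 3.31), although 0 of the 14 osteoclast genes passed the filter. The fibroblast list was at 11.0 in all cells and 0.717 without the stromal-gene cells, and the cartilage and bone list at 151 and 1.81.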

How the data were processed

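Single-cell RNA of 1 PBS and 1 CFA library was analysed from the filtered matrices the authors deposited, which hold raw UMI counts for 32285 genes in 7671 and 5709 barcodes (51146169 and 53517206 UMIs). Per the submitters' processing notes, Cell Ranger 7.0.1 and mm10 were used. The labels and the methods differ in the enzymes and in the version of the capture kit. Cells with at least 500 genes, at most 10% mitochondrial UMIs and at most 1% hemoglobin UMIs were kept. Sums and intervals were computed in Python 3.11.15 (scipy 1.17.1 for intervals, pandas 2.3.3 and numpy 2.4.6 for tables).

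UMIs were summed over the monocytes of a library and scaled to CPM, with exact Poisson intervals, exact conditional binomial intervals for ratios and Clopper-Pearson intervals for shares; the ratio of shares has a normal interval on the log scale. With 1 library per condition no test was run. A gene was called at a ratio of at least 2 or at most 0.5 with a mean of both levels of at least 100 CPM. For that call a library at 0 was set to 3 counts over its cells. A ratio against 0 UMIs given as "at least" is the lower end of its interval. Shares of cells with a UMI came from cells thinned to 3000 UMIs, which left out 2 CFA monocytes. UMIs of a PCR-amplified library share amplification, so intervals cover counting error only.

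Genes named are the selecting genes and markers, genes the study names for its monocytes and macrophages, the 4 members of each of 34 lists with the most UMIs, members past 2-fold, and the 12 highest and 12 lowest genes ordered by the interval bound nearest 1. That order left out mitochondrial, ribosomal, hemoglobin and immunoglobulin genes and genes below the level over all cells kept; other names were chosen after their values were seen, and some genes that met these rules are not reported here. The cells, lists and markers were chosen with earlier results of these data known. The lines at 0.2%, 0.25% and 0.5% of UMIs were set after seeing the data. Doublets were kept, since Scrublet (scanpy 1.11.5) marked 21 PBS cells (0.787%) and 2 CFA cells (0.0498%), and only its ranking was used. The calculation was tested on simulated counts. Promoter windows came from RefSeq (GRCm38.p6), chromosome 18 not used here, and gene positions from a GENCODE annotation of mm10.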

Additional observations from a re-analysis of the deposited data

How the results depend on the processing

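No paired analysis was possible because each condition had 1 library. The ratio of shares (4.41) stayed between 3.74 and 5.21 under the other choices of cells, apart from 6.73 without cells with 10 or more cell cycle UMIs (added after seeing the data), 8.41 without the upper limits on macrophage and osteoclast genes and 1.59 among Ptprc cells. The 129 higher genes became 252 with a mean of at least 50 CPM, 1243 with at least 10 UMIs in both libraries together and 73 with the interval wholly past 2-fold; the 49 lower genes became 145, 864 and 15, and 30 with scaling to the median. The lower genes were 163 without the upper limits, 164 without cells with 10 or more cell cycle UMIs (8 PBS cells left) and 95 without the cells over 0.25% in cell cycle genes. Of the 34 lists, 13 were past 2-fold, and 16 were without the hemoglobin limit. The number was 6 without the class II cells and 7 without the stromal, cycling and class II cells together. The identity list over C1q cells (1.39) was 1.46 with at least 10 marker UMIs, 1.42 with C1q under 2 UMIs, 1.55 with limits on thinned cells, 1.46 without the top Scrublet ranks, 1.54 without stromal-gene cells, 1.43 without cycling cells, 1.46 without class II cells and 1.87 without all 3 kinds.

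For the lists, and for the genes that passed the filter, the ratios past 2-fold that went to the other side of 1 are these, bounds against 0 UMIs apart. Without the hemoglobin limit Col3a1 was 0.788 and Dcn 0.364, and with at least 10 marker UMIs Prg4 was 0.963. Without the upper limits the neutrophil list was 0.980, the tissue macrophage list 0.831 and S100a8 0.567. With limits on thinned cells the fibroblast list was 0.133, Sparc 0.144, Col1a1 0.120, Col1a2 0.093, Col3a1 0.188, Dcn 0.0821 and Prg4 0.520. Without cells with 10 or more cell cycle UMIs the class II list was 0.894, Cd74 0.870, H2-Aa 0.916 and H2-Eb1 0.903. Without stromal-gene cells the fibroblast list was 0.717, Sparc 0.865, Col1a1 0.523, Col1a2 0.401 and Dcn 0.346. Without class II cells Ust was 1.0. Without all 3 kinds the fibroblast list was 0.749, Apoe 0.956, Col1a1 0.494, Col1a2 0.282 and Dcn 0.412. These settings differ from the reported values only in the cells they add or leave out. Over all settings, 50 of 476 list ratios and 233 of 2498 ratios of named genes lay on the other side of 1 from the reported ratio, and 6 and 22 of them are those above. The 4 sets without stromal, cycling or class II cells were added after seeing the data. The sets without class II cells alone and without cycling cells alone kept the stromal-gene cells under those lines. The 19 PBS cells limit the precision of every ratio.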

Other observations

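Some of the largest differences lay in genes that the naming order left out because other cells of the CFA library held more of them, and these were chosen after their values were seen. Fth1, the ferritin heavy chain, had UMIs in every monocyte and went from 2784 to 12541 CPM (4.50 times, 4.18 to 4.86). In endothelial cells Fth1 stood at 1743 and 1518 CPM and in the CFA C1q cells at 50425. The noncoding transcript gene AW112010 had 2 UMIs in PBS and 1275 in 102 CFA monocytes, 7.72 and 726 CPM, and stood at 292 and 480 CPM in endothelial cells. Saa3, a serum amyloid gene, had 2 UMIs in PBS and 634 in 54 CFA monocytes, and 0 and 12.2 CPM in endothelial cells. Ly6a, the gene of Sca-1, had 0 UMIs in PBS and 622 in 50 CFA monocytes, at least 30.6-fold higher, while endothelial cells held 1585 and 1706 CPM. Inhba, which encodes the activin A subunit, had 0 UMIs in PBS and 385 in 27 CFA monocytes, with 23.9% from 1 cell.

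UMIs of Lyz2 and Cd74 in endothelial cells also differed between the libraries. Endothelial cells, which by their definition here held at most 2 UMIs of Lyz2, kept one after thinning in 2.31% of cases in PBS and 38.8% in CFA. For Cd74 the values were 2.58% and 26.9%. Whether these UMIs were background RNA, and what part background RNA had in the levels of the monocytes, was not tested.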
